A study of Homo sapiens with 5 samples.

Results

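The regions described here lie on chromosome 1 and were called as peaks of BG4, an antibody fragment that recognises G-quadruplexes (G4s), in chromatin of LNCaP cells. Peaks of the 4 deposited BG4 lists (hg19 build) that overlapped by 1 bp or more were merged, and a region was kept where at least 2 lists called it. Of 794 merged regions on chromosome 1, 392 met this rule, out of 3554 on all chromosomes, where 47.3% of merged regions did. LNCaP is an established human line of prostate cancer that responds to androgen. The samples are 4 BG4 pull-downs and 1 input, with no treatment named, all from formaldehyde cross-linked and sonicated chromatin. Whether the replicates are separate cultures is not stated in the labels, and their spread may therefore be only technical. The study set out to relate G4s to enhancers, and the comparisons possible here are between the replicates and between parts of the genome.

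A G4 forms where a guanine-rich strand folds into stacked planes of 4 guanines. In human cells such structures are known mainly from open chromatin, and many lie at promoters of active genes. Chromosome 1 is the largest human chromosome. The tip of its short arm is rich in genes and in G and C, and its centromere is followed on the long arm by a large block of repeats. Positions are hg19 coordinates counted from 1. Genes, promoters and sequence motifs at these positions were not analysed here, because the tables at hand are on GRCh38 and positions were not converted.

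Replicate 1 had 665 peaks on chromosome 1, replicate 2 had 157, replicate 3 had 405 and replicate 4 had 231. The lists thus differed in length on this chromosome as they did elsewhere. Chromosome 1 held 10.3%, 9.57%, 11.1% and 10.8% of the peaks of the 4 lists in that order (10.4 ± 0.67%, SD, n = 4). Each deposited fold is the enrichment at the peak summit over the local background used by the peak caller. The reads behind each summit were recovered from the fold and its p. Outside the stretch described next, the median summit held 17 reads in replicate 1 and 15 in each of the others, and the weakest held 6 to 8. Background is given below as a multiple of the genome-wide level of the same list, the lowest value in that list, so a multiple of 1 does not show how low the input was. That level was 0.871, 0.633, 0.752 and 0.724 reads at a summit in replicates 1 to 4.

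The stretch from 564000 to 570500 is a nuclear copy of mitochondrial sequence and was kept apart from all counts by arm and window. It is nearly identical to part of the mitochondrial genome, so short reads of either are hard to tell apart. It held 4 regions, and all 4 were called in every list, as were 24.9% of the 3554 regions. At chr1:565012-565454 replicates 1 to 4 had folds of 3.31, 4.095, 3.59 and 3.60, over a background of 114 to 117 times the genome level. The region chr1:565791-566772 had folds of 3.04, 4.13, 3.55 and 3.61 over a background of 43.5 to 47.9 times. The folds were low and close to each other in every list, over a background raised in all of them. At chr1:567247-568071 the folds were 3.21, 3.57, 3.53 and 3.50, and at chr1:569250-569591 they were 3.31, 3.98, 3.70 and 3.46. Replicate 2 had the highest fold in 4 of the 4 regions. These summits held 117 to 332 reads, and their summits lay within 7 to 48 bp of each other across lists.

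The scale of a list matters for these folds. The caller scales the input to the depth of the pull-down, and the steps in the background values show the depth ratio of pull-down to input. It was 0.732, 0.530, 0.642 and 0.581 in replicates 1 to 4. A locus with as many pull-down as input reads would therefore have a fold of 1.37, 1.89, 1.56 or 1.72. Multiplied by the depth ratio, the folds of the stretch became 2.23 to 2.42, 1.89 to 2.19, 2.27 to 2.38 and 2.01 to 2.09 for the 4 lists. On that scale replicate 2, which had the lowest depth ratio, was no longer the highest. By this measure the stretch held between 1.89 and 2.42 times as many reads in the pull-downs as in the input. The multiplication takes out the scaling for depth, so these are read ratios between libraries of unequal depth and not corrected enrichments. Scaled for depth, the folds remain the deposited 3.04 to 4.13. The share of these reads that comes from mitochondrial DNA was not tested.

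The other 388 regions covered 187 kb and had a median width of 436 bp, from 265 to 1300 bp. They were unevenly spread over the 250 windows of 1 Mb. Of these windows, 147 held at least 1 region and 103 held none. A window held 1.55 regions on average, with a variance 2.72 times the mean. The 24 windows with 5 or more regions, 9.6% of all windows, held 153 regions, or 39.4% of the 388. Single windows with 11 and 15 regions stood above all others, which held at most 7. Of the 11, 4 had a background of at least 10 times the genome level, and without them that window also held 7.

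**Figure D1:**
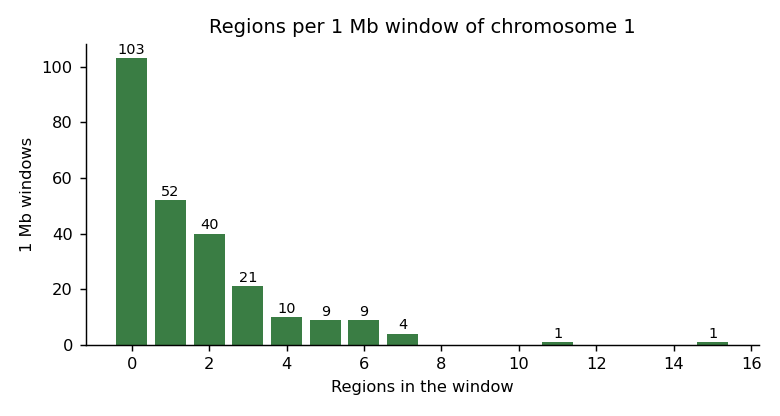
Number of 1 Mb windows of chromosome 1 (vertical axis) by the number of regions they held (horizontal axis), for regions called in at least 2 lists and without the mitochondrial stretch. 103 windows were empty, and the 2 densest held 11 and 15 regions.

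The densest window, from 1 to 2 Mb near the tip of the short arm, held 15 regions. It held 20, 7, 16 and 3 peaks of replicates 1 to 4. Of the 15 regions, 8 were called in replicates 1 and 3 only and 2 were called in all 4 lists. Over the 388 regions these classes made up 36.6% and 20.1%, and on the other chromosomes 30.3% and 25.4%. The window from 2 to 3 Mb held 11 regions, with 17, 5, 7 and 9 peaks in replicates 1 to 4. Replicate 4 thus had few peaks in the first of these windows and more in the second. Without replicate 1 or without replicate 3 no window held more than 7 regions. The regions of the whole chromosome, with the mitochondrial stretch, also fell from 392 to 204 and 232 in those settings. The drop in the window is therefore not particular to it. The 4 windows with 7 regions each, next in order, lay at 45 to 46, 155 to 156, 156 to 157 and 228 to 229 Mb.

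The first 10 Mb held 48 regions, the band from 40 to 50 Mb held 36 and the band from 150 to 160 Mb held 35. Peaks in the first band numbered 78, 24, 51 and 25 in replicates 1 to 4, and in the band from 150 to 160 Mb they numbered 78, 14, 34 and 28. Replicates 1 and 4 therefore had at least as many peaks in the second of these bands as in the first, and replicates 2 and 3 had fewer. The bands from 30 to 40 Mb and from 220 to 230 Mb held 28 each, and the band from 200 to 210 Mb held 27. The bands from 70 to 80 and from 190 to 200 Mb held 3 each.

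Long parts of the chromosome held no region. The longest ran from 121485414 to 142618649, over 21.1 Mb, and no list had a single peak inside it. It spans the split between the arms and, with it, the repeats beside the centromere. Whether reads could be aligned there was not tested, so the lack of peaks in it does not show a lack of BG4 signal. The whole 1 Mb windows inside it are among the empty windows counted above. Stretches of 7.74 Mb after 101361826, 7.42 Mb after 70820797 and 7.08 Mb after 213188979 held 1, 4 and 3 peaks of single lists. No list had a peak in the 6.73 Mb after 78245624 or in the 6.68 Mb after 186345040. A region between 2 of these stretches, at chr1:78245291-78245624, had no other within 6 Mb on either side.

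Regions were crowded toward the end of the short arm but not over the outer 10 Mb of the long arm. Ends were taken as the start of the chromosome and the end of its last peak, 249201014. The outermost 5 Mb of the short arm held 35 regions, 7 per Mb, and those of the long arm held 10, 2 per Mb. Over the outermost 10 Mb the short arm held 48 regions, 4.8 per Mb, and the long arm 13, 1.3 per Mb, which is below the 1.37 per Mb of the whole long arm. In the single lists, the outermost 5 Mb held 14.2%, 20.5%, 16.5% and 15.6% of the short-arm peaks (16.7 ± 2.7%, SD, n = 4), against 5.57%, 7.14%, 5.85% and 5.71% of the long-arm peaks (6.07 ± 0.72%, SD, n = 4). The share at the short-arm end was the larger in 4 of 4 lists, and the ranges did not overlap. Of the 35 regions at the short-arm end, 6 were called in all 4 lists, and of the 10 at the long-arm end, 3 were. Over the 388 regions the share called in all 4 lists was 20.1%, and over the regions of all chromosomes it was 24.9%. With counts this small, a difference between the ends cannot be read from them.

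**Figure D2:**
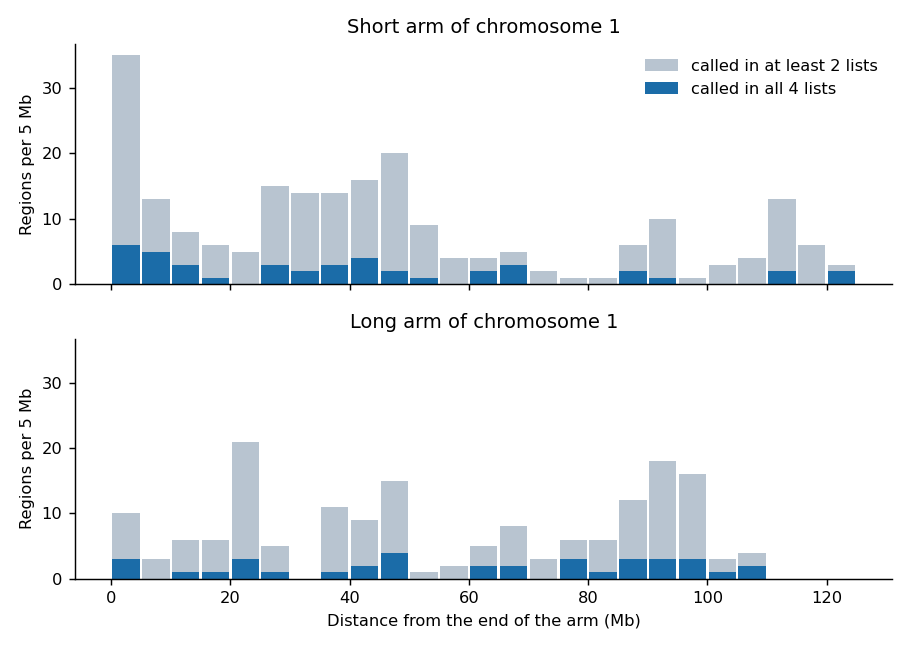
Regions per 5 Mb (vertical axis) by distance from the end of each arm in Mb (horizontal axis), with regions called in at least 2 lists in grey and those called in all 4 in blue. The first bar of the short arm reaches 35 regions, and the highest bar of the long arm, 20 to 25 Mb from its end, reaches 21.

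Split at 125 Mb, the short arm held 218 regions (1.74 per Mb) and the long arm 170 (1.37 per Mb). In the single lists, the short arm had 2.99, 0.664, 1.84 and 0.976 peaks per Mb in replicates 1 to 4, against 2.31, 0.564, 1.38 and 0.845 on the long arm. The ratio was 1.29, 1.18, 1.34 and 1.15, with a geometric mean of 1.24 and a range of 1.15 to 1.33 within 1 SD. All 4 lists had the higher density on the short arm (two-sided exact sign-flip permutation test over the 4 lists, p = 0.125, the smallest that 4 lists allow, and 0.5 after Benjamini-Hochberg adjustment over 4 tests). With the long peak-free stretch left out of the arm lengths, the ratio was 1.09. How many copies of each arm these cells carry was not analysed here.

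The peaks of the arms did not differ in strength beyond the spread between lists. The median fold of the short arm was 6.38, 6.80, 6.22 and 6.61 in replicates 1 to 4, and that of the long arm was 6.26, 6.85, 6.50 and 6.35. The ratio had a geometric mean of 1.00 (0.967 to 1.04 within 1 SD) and was above 1 in replicates 1 and 4 (exact sign-flip permutation test, two-sided, p = 1). Of the short-arm regions 19.3% were called in all 4 lists (95% Wilson interval 14.6% to 25.0%), and of the long-arm regions 21.2% (15.7% to 27.9%). These intervals overlap, and they cover counting error only.

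**Figure D3:**
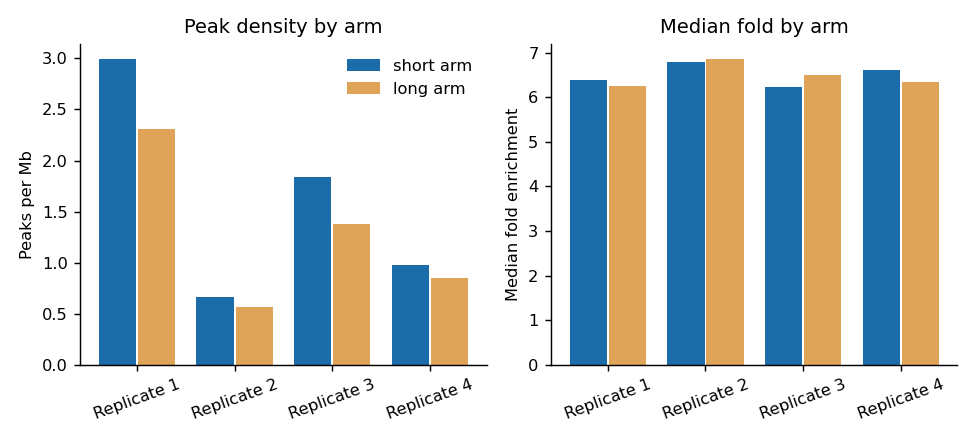
Peaks per Mb (left) and median fold enrichment (right) of the short arm (blue) and long arm (orange) of chromosome 1 in each of the 4 lists, without the mitochondrial stretch. Density is higher on the short arm in every list, while the order of the median folds changes between lists.

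The regions differed in how many lists called them. Against the 47.3% over all chromosomes, 392 of 794 or 49.4% of the merged regions of chromosome 1 were called in at least 2 lists (95% Wilson interval 45.9% to 52.8%). Among the 392, 207 were called in 2 lists, 103 in 3 and 82 in all 4. The share called in all 4 was 20.9%, against 24.9% over the regions of all chromosomes. Without the mitochondrial stretch it was 20.1% (95% Wilson interval 16.4% to 24.4%), and on the other chromosomes it was 25.4% (23.9% to 27.0%). The gap between chromosome 1 and the rest has no test here, since regions are not replicates and number of lists is part of the rule.

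Regions of 2 lists were mostly those of the 2 longest lists. Outside the stretch, 142 of 207, or 68.6%, came from replicates 1 and 3 only. As a share of all 388 regions this was 36.6% (95% Wilson interval 32.0% to 41.5%), against 30.3% (28.8% to 32.0%) of the regions of the other chromosomes. Replicate 1 called 365 of the 388, replicate 3 called 334, replicate 4 called 199 and replicate 2 called 137. Replicate 2, the shortest list, thus called 35.3% of the chromosome 1 regions, against 43.5% of the regions elsewhere. Among the 103 regions of 3 lists, replicate 2 was the missing one in 61, replicate 4 in 31, replicate 3 in 7 and replicate 1 in 4. At the edge of the rule, peaks of replicate 1 in regions of that list alone had a median fold of 5.64, and those in regions of 2 lists 6.32. The remaining 402 merged regions were called by a single list, 296 of them by replicate 1.

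The folds of chromosome 1 peaks differed from those elsewhere by no more than the spread between lists. The median fold was 6.36, 6.80, 6.45 and 6.48 in replicates 1 to 4, against 6.41, 6.73, 6.57 and 6.56 on the other chromosomes. The geometric mean of the ratio was 0.993 (0.980 to 1.01 within 1 SD), below 1 in 3 of 4 lists (two-sided exact sign-flip permutation test, p = 0.375 and 0.75 after Benjamini-Hochberg adjustment). The share of a list's peaks that fell in regions of at least 2 lists was 55.2%, 90.8%, 83.8% and 88.1% on chromosome 1, and 52.5%, 93.1%, 84.0% and 90.3% elsewhere. That ratio had a geometric mean of 1.00 (0.965 to 1.04 within 1 SD; two-sided exact sign-flip permutation test, p = 1). Sharing is mutual between lists, so the 4 values are not independent. The geometric mean of this ratio was 0.930 without replicate 1, which left replicates 2, 3 and 4.

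Regions called in more lists were wider and stronger. The median width was 391 bp for 2 lists, 462 bp for 3 and 602 bp for 4, and the median of the mean fold was 6.06, 7.10 and 9.28. Merging more peaks widens a region by construction, and a strong peak passes the threshold of more lists, so these values are a description. The median background was close in the 3 classes, at 1.92, 1.86 and 1.81 times the genome level.

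The strongest loci were taken as the 20 regions of highest median fold percentile among the 78 called in all 4 lists outside the stretch. Of these, 11 lay on the short arm and 9 on the long arm. Mean folds ran from 10.5 to 20.3, and summits held 11 to 69 reads. Replicate 1 gave the highest fold at 13 of the 20, and replicate 2 gave the lowest at 10. Over all 78 regions these counts were 43 and 37, so the order is not particular to the strongest loci. Each list has its own scale, so the order of the lists at a locus is not by itself a difference in binding.

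At the top stood chr1:172501724-172502381 on the long arm. Replicates 1 to 4 gave folds of 22.5, 13.5, 19.4 and 20.9 (19.1 ± 3.9, SD, n = 4). Its background was the genome level itself in all 4 lists, and its summits held 41, 21, 33 and 35 reads. The lists differ in depth, so these read counts are not compared with each other.

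The region chr1:228327510-228328107 had folds of 28.4, 17.4, 17.96 and 17.6 in replicates 1 to 4 (20.3 ± 5.4, SD, n = 4). Replicate 1 stood apart from 3 values that lay close together. Its summits held 69, 44, 40 and 37 reads, and they lay within 40 bp of each other. The region chr1:6673260-6673925 was the most even of the 78, with folds of 15.0, 13.2, 15.7 and 15.3 (14.8 ± 1.1, SD, n = 4), a coefficient of variation of 7.62%.

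Replicate 1 was again the highest at chr1:10458711-10459209, with folds of 23.2, 11.7, 17.3 and 12.98. At chr1:31190863-31191681 the folds were 15.0, 13.1, 16.4 and 10.5, over a background of 2.56 to 4.20 times the genome level. The region chr1:143913062-143913841, on the long-arm side of the peak-free stretch, had folds of 15.1, 11.6, 17.7 and 12.4. Its background was the genome level itself in replicates 2 and 3, and 1.28 and 1.07 times that level in replicates 1 and 4.

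At chr1:65885690-65886468 the folds were 15.0, 12.7, 12.6 and 12.8, a spread of 8.68% around the mean. Replicate 4 was the highest at chr1:2517742-2518379, with folds of 13.3, 10.1, 13.1 and 14.3. It was the lowest at chr1:202927154-202927767, where the folds were 16.5, 12.3, 12.7 and 7.87. The order of the lists therefore changed from locus to locus, but the counting error of single summits is wide. At chr1:202927154-202927767 the 16 summit reads of replicate 4 have a 95% Poisson interval of 9.15 to 26.0. How far counting error alone changes this order was not tested.

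Folds at chr1:233462973-233463572 were 17.5, 9.13, 12.7 and 12.5. The region chr1:54411172-54412080 had folds of 14.7, 11.7, 16.3 and 9.52, and chr1:9970374-9970877 had folds of 18.9, 12.97, 10.2 and 11.1. In all 3 the highest fold was less than 2 times the lowest. At chr1:200638463-200639413 the folds were 13.2, 7.73, 16.8 and 11.4, and the 4 summits lay within 14 bp, the closest of the 20.

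The region chr1:184723874-184724484 had folds of 13.2, 11.04, 12.2 and 7.27. At chr1:114447400-114448011 they were 14.8, 8.11, 12.3 and 11.1. The widest spread among the 20 was at chr1:7843854-7844378, with folds of 20.7, 10.1, 15.0 and 6.77 (13.2 ± 6.1, SD, n = 4), where replicate 4 had 11 summit reads and replicate 1 had 39. Its background was 1.07 times the genome level of each list.

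The last 4 of the 20 were chr1:1850322-1851192, with folds of 13.95, 8.85, 11.1 and 11.3, chr1:235667648-235668438, with 12.99, 10.1, 6.96 and 13.4, chr1:180991862-180992455, with 16.1, 10.1, 11.7 and 9.19, and chr1:1840080-1840931, with 12.5, 10.6, 10.5 and 8.50. At chr1:235667648-235668438 replicate 3 was the lowest, with 14 summit reads. Over the 78 regions the median coefficient of variation between lists was 20.8%, and in 64 the highest fold was at most 2 times the lowest.

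**Figure D4:**
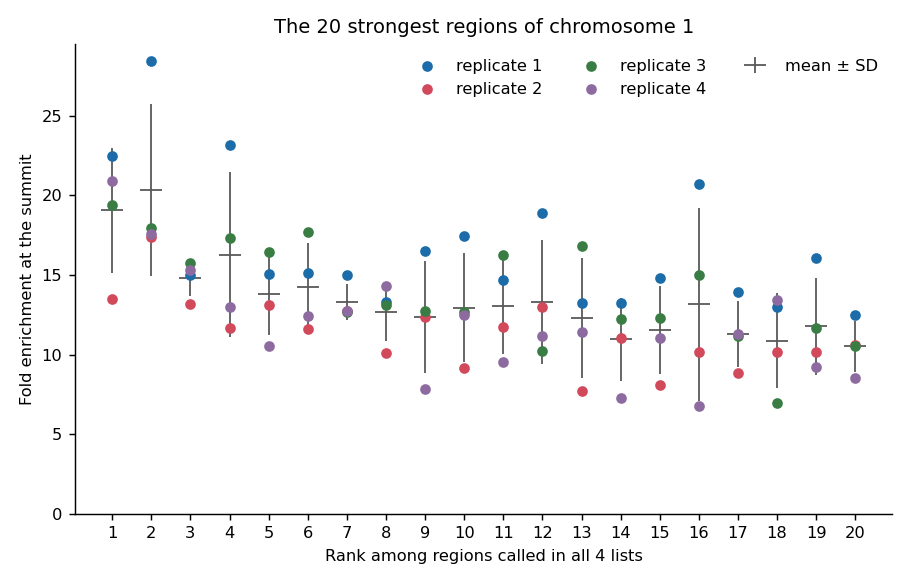
Fold enrichment at the summit (vertical axis) of the 20 strongest chromosome 1 regions called in all 4 lists, ordered by median percentile (horizontal axis), with 1 point per replicate and the mean ± SD in grey. Replicate 1 is the highest at 13 of the 20, against 43 of all 78 regions, and stands at 28.4 at rank 2.

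At the other end, the 5 weakest regions called in all 4 lists were of mixed kinds. The region chr1:121484221-121485414, next to the centromere, had folds of 1.36, 1.87, 1.55 and 1.71 over a background of 420 times the genome level. Its summits held 499, 498, 491 and 521 reads. These folds lay within 0.0151 of the 1.37, 1.88, 1.56 and 1.72 that equal reads in pull-down and input would give. The reads were 98.2%, 97.6%, 98.2% and 97.9% of 2 reads per bp of the smallest peak width, the ceiling that holds if 1 read is kept per position and strand. On the same measure the summits of the mitochondrial stretch held 22.9% to 65.4% of the ceiling. Whether reads at the same position were removed is not known from the labels. An effect of such a ceiling on the folds of the stretch was not tested.

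The region chr1:91852754-91853061 had folds of 3.69, 2.91, 3.19 and 3.10 over a background of 31.0 to 32.9 times the genome level. At chr1:161424082-161424748 the folds were 5.59, 3.45, 5.55 and 3.86 over 10.9 to 16.7 times. Both had a raised background in all 4 lists. The other weak regions had a background of 1.17 to 4.81 times. They were chr1:67390415-67391224, with folds of 4.29, 3.56, 3.09 and 3.35 from 12 to 19 reads, and chr1:224180178-224180710, with 7.84, 5.16, 5.79 and 5.90 from 8 to 15 reads. The former was called in a single list once a −log10 q of at least 3 was required. The latter kept all 4 lists at 3 and was called in a single list at 5.

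A raised background was uncommon outside the stretch. In 10 of the 388 regions (2.58%, 95% Wilson interval 1.41% to 4.68%) each list that made the call had a background of 10 times the genome level or more, against 43 of 3162 (1.36%, 1.01% to 1.83%) on the other chromosomes. These 10 lay at few places. From 2585364 to 2587456, 3 regions had folds of 1.77 to 2.32 over 27.96 to 63.9 times the genome level, and chr1:2628899-2629334 had folds of 2.096 to 2.45 over 65.5 to 66.6 times. Those 4 are part of the dense window from 2 to 3 Mb. Beside chr1:161424082-161424748 lay chr1:161427839-161428302 and chr1:161438901-161439541, with folds of 2.68 to 3.97. The others were chr1:91852754-91853061, chr1:121484221-121485414 and chr1:143283621-143284029, the last with folds of 2.31 and 2.16 in replicates 3 and 4. The part of sequence copy number in these calls was not tested.

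**Figure D5:**
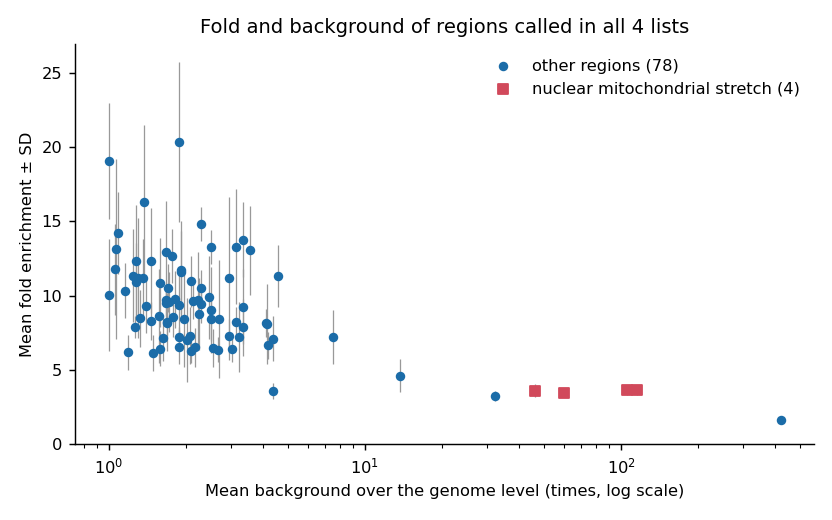
Mean fold enrichment ± SD over the 4 lists (vertical axis) against mean background as a multiple of the genome level (horizontal axis, log scale) for the 82 regions called in all 4 lists, with the 4 regions of the mitochondrial stretch as red squares. The region next to the centromere lies at the far right, at 420 times, and the 2 highest mean folds lie over a background below 2 times.

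In the densest windows, a few further regions were called in all 4 lists. The region chr1:2477433-2477887 had folds of 12.4, 8.17, 9.63 and 8.05 in replicates 1 to 4. Between 45 and 46 Mb, chr1:45769155-45769938 had folds of 12.2, 7.28, 9.002 and 9.12, and chr1:45956682-45957183 had 6.52, 5.14, 5.18 and 7.69 from 9 to 15 reads. The former was the stronger in each list. Between 155 and 157 Mb, chr1:155293543-155294527 had folds of 9.42, 5.13, 8.81 and 8.07, and chr1:156308015-156308617 had 8.85, 7.19, 7.44 and 5.09. At chr1:228353143-228353501, 25 kb from the strong region at 228327510, the folds were 7.61, 7.12, 9.12 and 8.83. It was weaker than its neighbour in 4 of 4 lists, over a background of 3.63 to 5.04 times the genome level.

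The remaining 47 regions called in all 4 lists had mean folds of 6.26 to 11.8, with 25 on the short arm and 22 on the long arm. They are given here from the short-arm end onward, with the lowest and the highest fold over the 4 lists. In the first 16 Mb, chr1:3370832-3371223 had folds of 7.16 to 8.93, chr1:3527928-3528475 had 5.69 to 8.17 and chr1:9885339-9885995 had 8.33 to 10.9. At chr1:9189058-9189797 replicate 4 had a fold of 5.12 and replicate 1 one of 17.96, a ratio of 3.51 that was the largest among the 78. Folds were 8.47 to 15.6 at chr1:10092597-10093080, 7.86 to 10.96 at chr1:11332769-11333200 and 9.48 to 13.1 at chr1:15850558-15851745.

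From 25 to 40 Mb, chr1:25071433-25071885 had folds of 6.38 to 14.97, with the background at the genome level in each list. At chr1:27560732-27561334 replicate 2 gave a fold of 3.56 and replicate 1 gave 11.8, with a background of 4.18 and 1.68 times the genome level in that order. The peaks of the 2 lists had different summits there, and the background is that at the summit. Folds were 7.18 to 8.73 at chr1:27648478-27648980, 5.56 to 7.61 at chr1:32859922-32860359 and 5.55 to 12.7 at chr1:38061287-38061777. They were 6.56 to 11.1 at chr1:38157823-38158232 and 5.02 to 8.32 at chr1:39874185-39874876.

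Between 41 and 63 Mb lay chr1:41826628-41827188, with folds of 7.57 to 12.99, and chr1:43735982-43736748, with 5.60 to 7.37. A close pair lay at 44 Mb, where chr1:44015768-44016180 had folds of 6.18 to 12.9 and chr1:44018523-44018882 had 6.26 to 7.77. They were 2.34 kb apart and both were called in every list. Folds were 7.29 to 10.6 at chr1:60279945-60280715 and 5.83 to 8.43 at chr1:62207778-62208252.

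Toward the centromere, chr1:68150609-68151199 had folds of 5.79 to 12.9, chr1:85742135-85742633 had 6.80 to 15.1 and chr1:89458095-89458934 had 4.96 to 9.21. The last of these had the highest background of the 47, at 6.42 to 9.39 times the genome level. Folds were 5.72 to 8.36 at chr1:112298018-112298480 and 4.68 to 9.002 at chr1:120838285-120838998. Of the 42 short-arm regions called in all 4 lists, 7 lay beyond 70 Mb. Of all 218 short-arm regions, the 10 Mb bands from 70 to 130 Mb held 3, 7, 11, 7, 19 and 3. The count of 7 is thus a description of position, and no scarcity of regions called in all 4 lists is read from it.

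On the long arm, chr1:143274902-143275227 had folds of 5.48 to 7.60 and chr1:147071417-147072044 had 8.53 to 11.4. The widest region of the chromosome was chr1:151253657-151254956, with folds of 5.47 to 12.5, and its summits lay up to 686 bp apart. Folds were 6.23 to 10.7 at chr1:151762758-151763357, 7.28 to 10.02 at chr1:153895323-153895835 and 8.55 to 14.6 at chr1:154531103-154531633. At the last of these, the summits of all 4 lists fell within 23 bp.

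From 160 to 186 Mb, folds were 5.10 to 11.5 at chr1:160068343-160069009, 9.65 to 12.3 at chr1:161359795-161360345 and 8.09 to 12.5 at chr1:166845381-166845824. The coefficient of variation between lists was 33.1%, 11.7% and 17.8% in that order. They were 5.11 to 6.84 at chr1:173837082-173838021, 7.36 to 13.02 at chr1:174128311-174128755, 4.70 to 7.21 at chr1:179851291-179851963 and 5.32 to 7.67 at chr1:185125759-185126617.

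Between 201 and 213 Mb, chr1:201139786-201140211 had folds of 7.40 to 11.3, chr1:201987736-201988199 had 6.87 to 9.997 and chr1:204463685-204464107 had 4.38 to 9.72. At chr1:206137851-206138461 replicate 3 was the lowest, at 3.64, and replicate 1 the highest, at 10.4. The strongest of this group was chr1:212458370-212458837, with folds of 9.47 to 16.5 and summits within 27 bp.

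Near the long-arm end, chr1:227975674-227976393 had folds of 6.93 to 9.42, chr1:244211378-244212149 had 7.69 to 11.97 and chr1:244815988-244816511 had 6.38 to 11.9. The outermost region of the long arm, chr1:249200204-249201014, was called in all 4 lists with folds of 8.75 to 11.3. Its end is the last peak end on the chromosome.

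Merging by overlap limits how far apart the summits of a region can lie, so the distances below are a description. Over the 78 regions called in all 4 lists, the outermost summits were a median of 81 bp apart, from 10 to 686 bp, and in 44 regions (56.4%) all 4 lay within 100 bp. On the other chromosomes the median was 93 bp and the share 54.7%. For single pairs of lists the median distance was 27 to 42.5 bp. The rank order of fold across these regions had a Spearman's rho of 0.54 for replicates 2 and 4 up to 0.74 for replicates 1 and 3, and of 0.48 to 0.71 without the regions of raised background. Peak counts in the 250 windows had a rho of 0.69 to 0.89 between lists. Windows without a peak in any list, among them those inside the longest peak-free stretch, are counted in it. How far they raise these values was not tested. These correlations describe regions and windows of 1 chromosome, which share the input and are not independent.

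Neighbouring regions were sometimes close together. The median gap between them was 224 kb, and 29.2% of gaps were under 100 kb and 4.39% under 10 kb. Linking regions less than 10 kb apart gave 15 groups with 32 regions in all, 13 of them pairs. A group of 3 from 1840080 to 1859890 held the strong regions at 1840080 and 1850322, with folds of 6.25 to 13.95 over the 3. The other group of 3, from 2585364 to 2587456, was the one of raised background described above. On chromosome 19, the densest chromosome, the median gap was 66.4 kb, and on chromosome 2 it was 643 kb. Gap lengths follow density, so this order is a description.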

How the data were processed

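The submitters' processing notes name MACS2 2.1.1, Bowtie2 2.2.5, bcl2fastq 1.8.4, SAMtools 1.11 and the hg19 build, with no settings given in the sources used here. For each BG4 replicate the authors deposited its own peak list, without a header. Each deposited peak carries a fold (ratio to local background), −log10 p and −log10 q values, and a summit distance from the start. Fold and −log10 q are the authors' values and were used within their own list.

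Peaks on chromosomes 1 to 22, X and Y were merged by overlap of at least 1 bp. Where a list had several peaks in a region, the one of highest fold was used. Summit reads and background were recovered from fold = (reads + 1) / (background + 1) and a Poisson p, with a whole number of reads for 100% of 13905 peaks within 0.001. Ratios between arms or chromosomes were tested over the 4 lists with a two-sided exact sign-flip permutation test at a threshold of 0.05, which 4 lists cannot reach. Intervals of shares are Wilson intervals and cover counting error only. Merging returned 100% of 500 simulated regions, and read recovery 100% of 1330 simulated summits. The simulated peaks of a region overlapped by construction, and the simulated summits followed the same formula. These runs therefore check the code only and not whether the formula holds for the deposited lists.

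Named regions are all those called in all 4 lists. Values per list are given for the 20 strongest, the 5 weakest, those in the densest windows (ties kept) and the mitochondrial stretch. The members, lists and tests were chosen with earlier results of these data known. Of 11 planned results, 2 were not run, the share near gene starts and the share with a G4 motif, because both need hg19 sequence or annotation. No sequence is printed for the same reason. Alternatives were stricter −log10 q, lists of equal length, other overlap rules, other numbers of lists, shifted windows and each replicate left out. The scripts ran under Python 3.11.15 with scipy 1.17.1, pandas 2.3.3, matplotlib 3.10.9 and numpy 2.4.6.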

Additional observations from a re-analysis of the deposited data

Results flagged for a closer look

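A value that stood far from the other 3 replicates was found in 3 of 43 sets. About 1 in 20 sets would be marked by chance, but 35 of the 43 are folds of regions partly chosen for a high or low fold, for which that rate does not hold. At chr1:228327510-228328107, replicate 1 had a fold of 28.4 and the nearest other 17.96. At chr1:65885690-65886468, replicate 1 had a fold of 15.0 and the nearest other 12.8. The median summit of chromosome 1 peaks held 17 reads in replicate 1 and 15 in each of the others. Because the others are tied whole numbers, any different value would have been marked, whatever its size.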

How the results depend on the processing

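The removal of regions with a background of at least 10 times the genome level was added after the data had been seen. The ratio of short-arm to long-arm density kept its direction under all 11 alternatives, from 1.09 to 1.30, and was 1.21 to 1.27 with 1 replicate left out. Ratios near 1 changed sides. The ratio of median fold between chromosome 1 and the rest was 1.01 and 1.00 at a −log10 q of at least 3 and 5, and 1.00 without raised background. The arm ratio of median fold was 0.961 for lists of equal length, 0.994 for peaks in regions of at least 2 lists and 0.990 with the mitochondrial stretch left in, and 0.989 to 1.02 with 1 replicate left out. The ratio of shared peaks was 1.01 with an overlap of 50% of both peaks, and 0.930 to 1.01 with 1 replicate left out. Regions numbered 392, but 171 with equal list lengths, 185 when 3 lists were required, 82 when all 4 were, 204 without replicate 1 and 232 without replicate 3 (204 to 375 with 1 replicate left out). The share in all lists was 35.7% for lists of equal length and 32.9% to 42.2% with 1 replicate left out, when 3 lists remain. The densest window held 9 regions at a −log10 q of at least 5, 6 with equal list lengths, 7 when 3 lists were required and 7 to 15 with 1 replicate left out. The summit spread was 74 bp at a −log10 q of at least 5, 67 bp for lists of equal length and 58.5 to 74 bp with 1 replicate left out. Using fewer lists or fewer peaks lowers these counts by construction. For the ratios that changed sides the cause was not tested. All 4 lists still called 78 of the 82 named regions at a −log10 q of at least 3, 70 at 5 and 61 for lists of equal length. No paired analysis was possible because there is 1 group, so no replicate number recurs in another; the ratios above already pair values within a list. The alternatives of the 2 results that need hg19 annotation were not run. Weak summits of 6 to 8 reads limit the precision of single folds.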
